A study of Capra hircus with 18 samples.

Results

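PTX3, the gene of the long pentraxin 3, was 1 of 1557 different genes listed in 2 deposited tables of blood RNA from transported goats, and its row was taken by gene name. The tables hold genes that passed an unadjusted p of 0.05 in the study's own comparison of transported with control goats, so PTX3 was chosen on the difference between groups, and its group levels are given here as a description, with no test. All 18 animals were uncastrated male Spanish goats (Capra hircus) aged 8 months, kept off feed overnight. The control group (7 goats) stayed in pens, the 30 min group (4 goats) was driven for 30 min over roughly 50 km, and the 180 min group (7 goats) for 180 min over roughly 200 km. Blood was taken into an RNA-stabilising tube after the journey, and polyadenylated RNA freed of globin transcripts was sequenced, with 1 library per goat. Each goat is a separate animal, and it keeps here the number it has in the sample titles. The study worked over 2 days. Which goats belonged to which day is not given in the sources used here, so no value could be adjusted for day. The library sizes implied by reads, gene length and FPKM (fragments per kilobase of transcript, scaled to library size) ran from 10443023 to 39473244 in control goats, from 13992574 to 22855051 at 30 min and from 11290309 to 34125715 at 180 min. The library of goat 10 stood apart from the other 6 of the 180 min group: the mean chi-square per listed gene between its counts and those of another goat was 851 to 2374, against 122 to 753 between the others. It was the highest of its group in the summed neutrophil, platelet and endothelial markers described here and the lowest in the summed T cell markers. It was also the second lowest of its group in PTX3, and a number of the values below are also given without it, an alternative added after the data were seen. Without goat 10 PTX3 was 5.83 higher on the log2(normalised count + 1) scale at 180 min than in the control group, against 5.51 with it, and the ratio of mean FPKM was 62.3, against 54.5.

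Pentraxins are pattern recognition proteins that assemble from several subunits. The short pentraxins, C-reactive protein (CRP) and serum amyloid P (APCS), are secreted by the liver during the acute phase response. The long pentraxin PTX3 is made at sites of inflammation by monocytes, macrophages, dendritic cells, endothelial cells and fibroblasts when interleukin 1, tumour necrosis factor or ligands of Toll-like receptors act on them. Neutrophils store PTX3 protein in their specific granules, loaded while the cells mature in the marrow, and release it on activation. PTX3 binds complement C1q, factor H, P-selectin and the hyaluronan-organising protein TSG-6, which is encoded by TNFAIP6. RNA of whole blood is a mixture, in which fewer cells of a type and less RNA per cell cannot be told apart.

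The files place PTX3 (ENSCHIG00000012523) on chromosome 1 from 109705569 to 109711190, on the minus strand, as a protein-coding gene with 1404 bases of transcript. The genome build behind these coordinates is not given in the sources used here. In the RefSeq annotation of assembly ARS1.2 the span of VEPH1 overlaps PTX3, and VEPH1 is listed in neither table. The library kit does not mark the strand, so reads from the 2 genes where they overlap could not be separated by strand. No listed gene lay within 1 Mb of PTX3, and the nearest listed gene was RF01295, a small Cajal body RNA 3.21 Mb away in the 180 min table. On the other side the nearest was ENSCHIG00000014066, at 6.57 Mb in the same table. In the 30 min table the nearest were the unnamed genes ENSCHIG00000022304, at 3.65 Mb, and ENSCHIG00000006789, at 17.04 Mb.

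PTX3 was low in most control goats and higher in every transported goat than in any control goat. In the control group PTX3 FPKM was 2.16 in goat 4, 3.15 in goat 9, 3.81 in goat 1, 4.86 in goat 6, 6.48 in goat 8, 23.5 in goat 7 and 39.0 in goat 3. Goats 3 and 7 stood above the other 5 control goats. The mean was 11.9 ± 14.1 FPKM (SD, n = 7) and the median 4.86 FPKM. These levels rested on 67 to 1304 reads per goat, so PTX3 was counted in every control library.

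In the 30 min group PTX3 FPKM was 154 in goat 21, 90.4 in goat 22, 89.1 in goat 24 and 85.5 in goat 27, which is 105 ± 32.7 (SD, n = 4) with a median of 89.8. The 4 goats lay close together, with a ratio of highest to lowest of 1.80 against 18.1 in the control group. They did not overlap the control group, and their lowest goat was 2.19-fold above the highest control goat. Among the 430 genes of that table, 6.51% did not overlap and were higher at 30 min. The ratio of mean FPKM was 8.82 and the ratio of medians 18.5. Without control goat 3, the highest of its group, the ratio of means was 14.3.

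In the 180 min group PTX3 FPKM was 68.1 in goat 13, 87.8 in goat 10, 209 in goat 14, 296 in goat 11, 363 in goat 17, 1572 in goat 16 and 1927 in goat 15. Goats 15 and 16 stood far above the other 5, and goats 10 and 13 were at the level of the 30 min group or below it. The mean was 646 ± 768 FPKM (SD, n = 7) with a median of 296 and a ratio of highest to lowest of 28.3. All 7 goats were above every control goat, the lowest by 1.75-fold, while 1.84% of the 1247 genes of that table did not overlap and were higher. The ratio of mean FPKM to the control group was 54.5 and the ratio of medians 60.9. Without control goat 3 the ratio of means was 88.2, and without goat 15 it was 36.5. Goat 15 held 42.6% of the summed PTX3 FPKM of its group, so the mean rests largely on the highest goats.

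**Figure D1:**
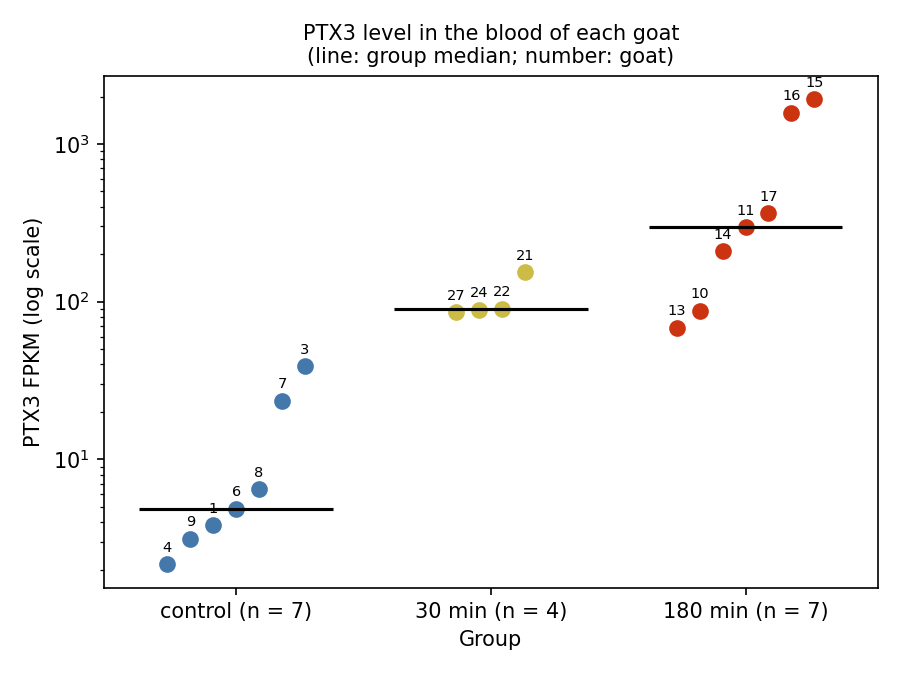
PTX3 level in FPKM on a log axis for each goat, with points labelled by goat number and a horizontal line at the group median. The 4 goats at 30 min (85.5 to 154) and the 7 goats at 180 min (68.1 to 1927) all lie above the highest of the 7 control goats (39.0).

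On the log2(normalised count + 1) scale PTX3 was 3.82 (SE 0.62) higher at 30 min than in the control group and 5.51 (SE 0.93) higher at 180 min. On this scale these were the largest upward differences of the 430 and of the 1247 listed genes, and the rank was not computed under other settings. At 30 min the next was CXCL8, the neutrophil-attracting chemokine interleukin 8, at 3.79, which is within the SE of the PTX3 value, and CXCL8 was far less abundant, with a mean of 177 ± 111 normalised counts at 30 min and 27.1 ± 37.6 in the control group. At 180 min the next gene was ENSCHIG00000024655, which has no name in the files, at 4.72. Both comparisons used the same 7 control goats.

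The 2 journeys can be set side by side only in FPKM, because the normalised counts were scaled within each table. On the log2(FPKM + 1) scale the 180 min group was 1.69 (SE 0.73) above the 30 min group, and the pooled SD was 1.53. The ratio of mean FPKM was 6.18, or 4.14 without goat 15, and the ratio of medians 3.30. The groups overlapped: 5 of the 7 goats at 180 min were above all 4 goats at 30 min, goat 10 lay within their range and goat 13 lay below it. The SD of log2(FPKM + 1) was 0.40 at 30 min, 1.38 in the control group and 1.86 at 180 min. The order of the medians was therefore control, 30 min and 180 min, with the control group apart from both others and the last pair overlapping.

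PTX3 moved from a minor to a prominent transcript among the listed genes. Its reads made up 0.000303% to 0.00548% of the library in control goats, 0.0120% to 0.0216% at 30 min and 0.00957% to 0.271% at 180 min. By FPKM, which is per length, PTX3 ranked between 251 and 714 of the 1247 genes of the 180 min table in control goats. In the 180 min group it ranked between 4 and 203, and it ranked 4 in both goat 15 and goat 16. In the 30 min table it ranked between 51 and 242 of 430 in control goats, with goat 3 at 51 and goat 7 at 60, and between 25 and 30 in the 30 min group.

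Cell type markers moved with the groups as well. Of 22 neutrophil markers, 8 were listed at 180 min (IL1R2, ALPL, MMP25, LTF, CSF3R, S100A12, S100A8 and VNN2), all with a higher mean against 59.4% of all listed genes, and their summed normalised count ran from 33022 to 103610 in control goats and from 91237 to 202213 at 180 min. Of 12 monocyte markers, 3 were listed (CD163, CSF1R and CD14), and their sum ran from 3052 to 10453 and from 9216 to 31348. The 6 listed T cell markers of 17 had lower means, while 59.4% of all listed genes had a higher mean. Their sum was 8064 to 15344 in control goats against 4449 to 9019 at 180 min. LCK and CD5 among them did not overlap the control group, which held for 1.2% of all listed genes in the downward direction. The listed B cell marker MS4A1 ran from 3759 to 5196 and from 1635 to 4769. Of 14 endothelial and connective tissue markers, cells that can also make PTX3, 6 were listed, of which 3 had a higher and 3 a lower mean. Their sum was 160 to 815 in control goats against 294 to 4223 at 180 min, or 294 to 1215 without goat 10. VWF made up most of it, with a mean of 353 of 435 in control goats and 1031 of 1086 at 180 min. A goat at 0 was found for 5 of the 6 markers in the control group and for 4 at 180 min. The platelet markers SELP and GP1BB, 2 of 11, had a higher mean, with a sum of 166 to 3269 against 517 to 20156, but the median sum was lower at 180 min, at 1138 against 1311. Goat 10 alone had 20030 normalised counts of GP1BB, and without it the mean GP1BB at 180 min was 1400 in place of 4061, against 1216 in the control group, and the highest platelet sum was 3058. The NK cell marker NKG7, 1 of 12, ran from 1053 to 2252 and from 1992 to 3305. None of the listed markers was at 0 in all goats, and none of the 9 dendritic cell markers was listed. The markers listed at 30 min included 5 of 12 B cell markers and NCR3 for NK cells, with lower means. Only 29.5% of all genes of the 30 min table had a higher mean. No monocyte, dendritic or endothelial marker was listed at 30 min. The median listed gene of the 30 min table was itself 0.69 lower on the log2 scale than in the control group. Most genes of that table were listed for a lower level, so its median gene is not a neutral reference. The B cell marker MS4A1 was lower at 30 min, at a mean of 3086 normalised counts against 4177. Its difference of -0.43 was smaller than that of the median listed gene. CD79A (-0.65) and BLK (-0.70) lay close to that gene, and CD79B (-0.88) and VPREB3 (-1.11) lay below it. Whether the cell makeup had a part in the PTX3 differences was not tested.

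Relative to the summed FPKM of the 8 neutrophil markers, PTX3 was higher in 6 of the 7 goats at 180 min than in any control goat. It stood at 0.0539% to 1.06% of that sum in control goats, with a median of 0.276%, and at 0.567% to 27.6% at 180 min, with a median of 5.70%. The overlap came from goat 10, at 0.567%, which had the highest summed neutrophil marker FPKM. S100A12, which encodes a calcium-binding protein abundant in neutrophils, made up 44.9% to 81.3% of that sum in control goats and 64.1% to 82.5% at 180 min. Relative to the other 7 markers, a sum added after the data were seen, PTX3 stood at 0.288% to 2.69% in control goats and at 3.24% to 91.2% at 180 min, and the groups did not overlap. Relative to the 3 monocyte markers the groups did not overlap, with PTX3 at 1.63% to 18.1% of their summed FPKM in control goats and 36.0% to 306% at 180 min. The log2 difference of the ratio was 3.98 for the 8 neutrophil markers and 4.24 for monocyte markers, against 5.31 for log2(FPKM + 1) of PTX3 itself. The ratios were taken on the log2 scale without an added 1, so the scales differ. PTX3 was chosen on its group difference, so its rise against these sums follows largely from that choice. What the cell makeup contributed was not tested.

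**Figure D2:**
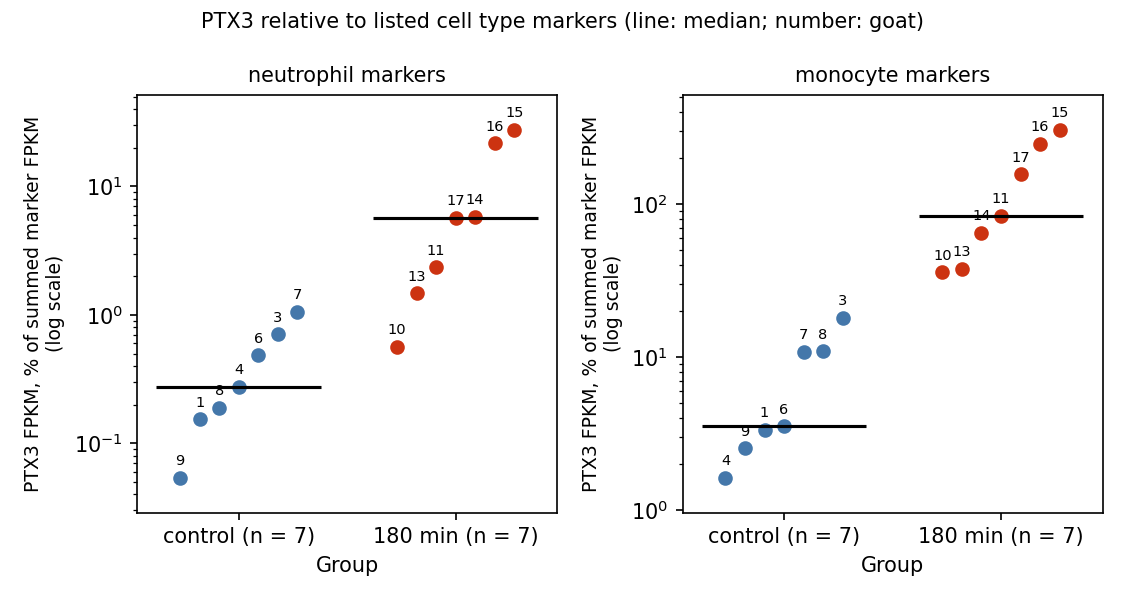
PTX3 FPKM as a percentage of the summed FPKM of listed neutrophil markers (left) and monocyte markers (right), on log axes, with 1 point per goat labelled by its number and a line at the median of each group of 7. Against neutrophil markers only goat 10 of the 180 min group (0.567%) lies within the control range, and against monocyte markers no goat does.

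The second question was which listed genes followed PTX3 from goat to goat. Goats of a group were compared with each other, so that the difference between groups, by which all listed genes were chosen, did not enter. For each gene the slope was fitted as its log2 change per log2 unit of PTX3 normalised count, with group as a term, by edgeR's quasi-likelihood test on the counts (two-sided, Benjamini-Hochberg over all listed genes). The measure of likeness r is Pearson's correlation of log2(normalised count + 1) after the group means were taken out, and it is given without a p. It was positive for 56.6% of the genes of the 180 min table and 58.0% of those of the 30 min table. Of the 1246 genes tested at 180 min, 1 passed an adjusted p of 0.05 (0.0803%), and none of the 429 tested at 30 min did (0.0%). At an unadjusted p under 0.05, 142 genes (11.4%) rose and 53 (4.25%) fell with PTX3 in the 180 min table, against 14 (3.26%) and 7 (1.63%) in the 30 min table. Single goats moved these unadjusted counts: the 195 in both directions at 180 min became 110 without goat 15, and the 21 at 30 min became 3 without control goat 3, 13 without control goat 1 and 42 without control goat 8. With DESeq2 the adjusted calls in the 180 min table were 90, of which 82 rose (9.55% of the 859 genes with an adjusted p) and 8 fell (0.931%) with PTX3, and with limma on log2 values there were 0, with 170 genes at an unadjusted p under 0.05. In the 30 min table DESeq2 and limma also called 0 genes, with 28 and 39 at an unadjusted p under 0.05.

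The gene that passed was TNFAIP6, the gene of TSG-6, a secreted protein that binds PTX3 and helps to cross-link hyaluronan. Its normalised count in control goats was 50.5 in goat 4, 72.7 in goat 8, 75.8 in goat 6, 93.9 in goat 1, 118 in goat 9, 366 in goat 7 and 470 in goat 3. At 180 min it was 37.4 in goat 10, 146 in goat 17, 189 in goat 14, 206 in goat 13, 672 in goat 11, 1306 in goat 15 and 1512 in goat 16. The goats highest in PTX3 were highest in TNFAIP6 in both groups, namely 3 and 7 in the control group and 15 and 16 at 180 min. The groups themselves overlapped, with means of 178 ± 168 in the control group and 581 ± 603 at 180 min (SD, n = 7 each). The slope was 0.71 (SE 0.12, edgeR adjusted p = 0.0464), and r within groups was 0.85 over the 14 goats. Within the control group Pearson's r was 0.91 (exact permutation p = 0.0187, two-sided, adjusted to 0.588) and Spearman's rho 0.64 (exact permutation p = 0.139, adjusted to 0.876). Within the 180 min group r was 0.82 (exact permutation p = 0.0276, adjusted to 0.413) and rho 0.61 (exact permutation p = 0.167, adjusted to 0.804).

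The TNFAIP6 call depended on single goats and on the settings, while its slope did not. The edgeR adjusted p was 0.0954 without control goat 1, 0.0740 without 3, 0.0705 without 6, 0.0674 without 7 and 0.0575 without 8. It was 0.171 without 180 min goat 15, 0.110 without goat 16 and 0.0310 without goat 10. The slope stayed between 0.65 and 0.82 under the alternatives that kept PTX3 on the log2 scale. Over all 21 alternatives the adjusted p ran from 8.71e-05 with DESeq2 to 0.298 on ranks of PTX3, and 10 of the 21 were under 0.05. Without the 2 goats farthest from the median PTX3 level, r was 0.08 in the control group (goats 3 and 7 left out) and 0.46 at 180 min (goats 15 and 16 left out). The relation of TNFAIP6 to PTX3 in the control group therefore rests on goats 3 and 7.

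The other 4 listed genes of the 21 known binding partners and receptors of PTX3 did not pass. The complement genes C1QA and C1QB, which encode chains of the C1q recognition molecule, had slopes of -0.33 (SE 0.18) and -0.16 (SE 0.14). These slopes join groups that ran opposite ways: r was 0.24 for C1QA and 0.54 for C1QB among control goats, and -0.65 and -0.71 at 180 min (exact permutation p = 0.116 and 0.0772, adjusted to 0.614 and 0.518), with rho of -0.79 for both (exact permutation p = 0.0480, adjusted to 0.637). Without goats 3 and 7 the control r was -0.29 and -0.28. The slopes of the groups differed at an unadjusted edgeR p of 0.0656 for C1QA and 0.00949 for C1QB, which did not pass adjustment (0.532 and 0.406). Goat 10 was the highest of its group in both genes, and without it r at 180 min was -0.55 and -0.65. SELP, which encodes the adhesion molecule P-selectin, had a slope of -0.15 (SE 0.31), and LY96, the MD-2 partner of Toll-like receptor 4, 0.10 (SE 0.10). The edgeR adjusted p of these 4 ran from 0.445 to 0.913. All 5 had a higher mean at 180 min, as did 59.4% of all listed genes, and none of the 21 was listed at 30 min. The median r of the 5 was -0.09 against 0.08 over all 1246 genes, and without goat 10 it was 0.07 against 0.12, so only TNFAIP6 among them went with PTX3 past the test. None of the 6 other pentraxins (PTX4, CRP, APCS, NPTX1, NPTX2 and NPTXR) was listed in either table.

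**Figure D3:**
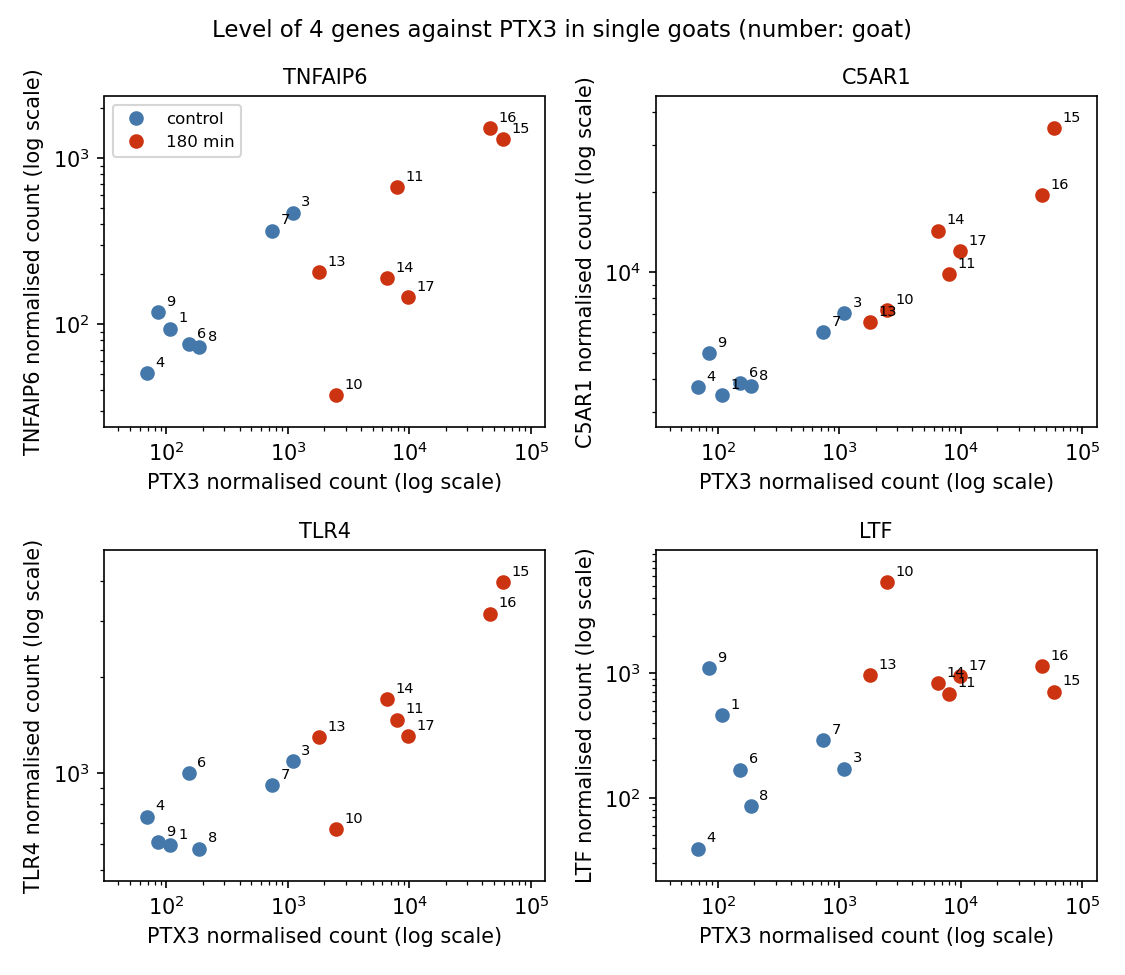
Normalised counts of TNFAIP6, C5AR1, TLR4 and LTF against PTX3 normalised count on log axes, with 1 point per goat labelled by its number, for the control group and the 180 min group. TNFAIP6, C5AR1 and TLR4 are highest in goats 15 and 16, while LTF is highest in goat 10.

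In the 180 min table the gene with the highest r within groups, taken over both groups, was C5AR1, the receptor through which myeloid cells sense the complement fragment C5a. Its normalised count in control goats was 3472 in goat 1, 3710 in goat 4, 3745 in goat 8, 3847 in goat 6, 4969 in goat 9, 5987 in goat 7 and 7055 in goat 3. At 180 min it was 6514 in goat 13, 7216 in goat 10, 9876 in goat 11, 12020 in goat 17, 14341 in goat 14, 19499 in goat 16 and 34572 in goat 15. Goats 3 and 7 were again the highest of the control group and goats 15 and 16 the highest at 180 min, and goats 10 and 13 were the lowest at 180 min for both genes. The slope was 0.34 (SE 0.07), r over the 14 goats was 0.89, and the edgeR adjusted p was 0.0541, over the threshold. Under 21 alternatives that adjusted p ran from 8.71e-05 to 0.347 and was under 0.05 in 6. Within the control group r was 0.83 and fell to -0.28 without goats 3 and 7, so it rests on those goats, while at 180 min r was 0.94 and stayed at 0.87 without goats 15 and 16. C5AR1 was also among the 8 genes with the highest r in the 30 min table, at 0.75 over 11 goats, with a slope of 0.23 (SE 0.08, edgeR adjusted p = 0.891). The 2 tables share the 7 control goats, so these values are not independent.

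The other genes highest in r at 180 min were of several kinds. PFKFB4, a kinase that sets the level of the glycolytic activator fructose 2,6-bisphosphate, had a slope of 0.34 (SE 0.06, r 0.87), and GYS1, the glycogen synthase of muscle and most other tissues, 0.27 (SE 0.06, r 0.86). ATG16L2, a relative of the autophagy protein ATG16L1, had 0.36 (SE 0.07, r 0.85), SLC28A3, a concentrative nucleoside transporter, 0.31 (SE 0.07, r 0.85), and FAM129A 0.36 (SE 0.08, r 0.84). XPO6, the exporter of actin from the nucleus, had the second highest r at 0.88 with a shallow slope of 0.19 (SE 0.06). Without goats 3 and 7 the control r of ATG16L2 turned from 0.79 to -0.81, and it fell from 0.93 to 0.08 for PFKFB4, from 0.78 to 0.23 for GYS1 and from 0.86 to 0.37 for FAM129A, so in the control group the relation of these 4 genes rests on those 2 goats. For SLC28A3 it fell from 0.78 to 0.52 and for XPO6 from 0.84 to 0.67. At 180 min the r of the 6 genes ran from 0.83 to 0.92, and from 0.43 to 0.74 without goats 15 and 16. None of these 6 passed, with edgeR adjusted p from 0.0541 to 0.124, and each passed with DESeq2. For PFKFB4 at 180 min the normalised count was 697 in goat 10, 901 in goat 17, 926 in goat 13, 1651 in goat 11, 1796 in goat 14, 2317 in goat 16 and 3171 in goat 15. Goat 17 was the third highest in PTX3 and the second lowest in PFKFB4.

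The genes lowest in r at 180 min included 2 of B cells and other lymphocytes. MS4A1, which encodes the B cell surface protein CD20, had a slope of -0.17 (SE 0.07, r -0.76, edgeR adjusted p = 0.237), and LTB, the lymphocyte cytokine lymphotoxin beta, -0.22 (SE 0.08, r -0.68, adjusted p = 0.221). MS4A1 was 1635 in goat 15 and 2334 in goat 16, the 2 goats highest in PTX3, and between 3231 and 4769 in the other 5 goats at 180 min. IGFBP4, a binding protein of insulin-like growth factors, had -0.47 (SE 0.13, r -0.76, adjusted p = 0.0943), and FBP2, the muscle form of the gluconeogenic fructose bisphosphatase, -0.33 (SE 0.11, r -0.73, adjusted p = 0.150). Without goats 3 and 7 the control r turned from -0.57 to 0.86 for FBP2, from -0.65 to 0.15 for IGFBP4 and from -0.39 to 0.28 for LTB, and it went from -0.90 to -0.34 for MS4A1. The negative r of FBP2, IGFBP4 and LTB in the control group therefore rests on those 2 goats, while that of MS4A1 was weaker without them. Without goats 15 and 16 the r at 180 min stayed at -0.79 for IGFBP4 and -0.78 for FBP2, while it went from -0.83 to -0.37 for LTB and from -0.76 to 0.16 for MS4A1. All 4 were over the threshold with edgeR. With DESeq2 the adjusted p of MS4A1 was 0.0338, of IGFBP4 0.00609 and of FBP2 0.0265, and that of LTB stayed over 0.05.

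In the 30 min table no gene passed, and the highest and lowest r among named genes with a mean of at least 50 normalised counts give a description over 11 goats. After OSBPL2, an oxysterol-binding protein relative (r 0.83), and FLOT2, the membrane raft protein flotillin 2 (r 0.78), came C5AR1. ORAI2, a calcium channel subunit (0.72), HSF4, a heat shock factor (0.71), PRDM1, the transcriptional repressor Blimp-1 (0.70), SGK1, a glucocorticoid-induced kinase (0.70), and SLC40A1, the iron exporter ferroportin (0.66), followed. The lowest r were those of APOPT1 (-0.69), PLIN2, which coats lipid droplets (-0.69), UBTF, a factor of RNA polymerase I (-0.69), and MGST1, a microsomal glutathione transferase (-0.63). The slopes of these 12 genes ran from -0.22 to 0.52, with edgeR adjusted p from 0.891 to 0.897. The 4 goats at 30 min lay close together in PTX3, with an SD of log2(FPKM + 1) of 0.40, so they add little spread to these slopes. Without goats 3 and 7 the r among control goats was between -0.19 and 0.07 for OSBPL2, C5AR1, ORAI2, HSF4 and SGK1, whose place therefore rests on those 2 goats. It was 0.56 for FLOT2, 0.65 for PRDM1 and 0.69 for SLC40A1, and -0.18 for APOPT1, -0.53 for PLIN2, 0.19 for UBTF and -0.39 for MGST1. In the 180 min table MGST1 ran the other way among transported goats. Its normalised count was 194 in goat 10, 1143 in goat 11, 1199 in goat 13, 1871 in goat 14, 1873 in goat 17, 3201 in goat 16 and 3965 in goat 15, so goats 15 and 16 were the highest in both genes. Its r was 0.77 at 180 min (exact permutation p = 0.0248, adjusted to 0.404), 0.90 without goat 10, and -0.65 among the same control goats, and the slopes differed at an unadjusted edgeR p of 0.0127 (adjusted 0.409).

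Among the pathway lists, genes of the signals that induce PTX3 and glucocorticoid-induced genes had the highest median r at 180 min, and their order turned on goat 10: the medians were 0.59 and 0.50 with it and 0.56 and 0.64 without it. Of 32 genes of the inducing signals 10 were listed, all with a higher mean at 180 min against 59.4% of all listed genes, and IL1R2 alone was higher without overlap, which held for 1.84% of all. The slope was positive with an unadjusted p under 0.05 in 5 of the 10, against 11.4% of all listed genes, and none passed the edgeR adjustment. The median r was 0.59 against 0.08 over all listed genes, or 0.56 against 0.12 without goat 10. With DESeq2, CD14, IL1R2 and TLR4 passed, 3 of the 10, beside 9.55% of all genes that rose with PTX3. A list chosen with earlier results of these samples known gives no independent support for a direction.

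TLR4, the receptor for bacterial lipopolysaccharide, had a slope of 0.30 (SE 0.07, edgeR adjusted p = 0.0629). Its normalised count at 180 min was 669 in goat 10, 1294 in goat 13, 1305 in goat 17, 1470 in goat 11, 1704 in goat 14, 3152 in goat 16 and 3952 in goat 15, and in control goats it ran from 581 to 1094. Goats 15 and 16, the highest in PTX3 at 180 min, were the highest in TLR4, and goat 10 was within the control range. CD14, the co-receptor that hands lipopolysaccharide to TLR4, had a slope of 0.43 (SE 0.12, adjusted p = 0.0943), and TLR2, which senses bacterial lipoproteins, 0.30 (SE 0.12, adjusted p = 0.227). The endosomal RNA receptor TLR7 had a slope of 0.18 (SE 0.08, adjusted p = 0.286), the adaptor TIRAP 0.04 (SE 0.21) and the receptor of tumour necrosis factor TNFRSF1A 0.05 (SE 0.08). Without goat 10 the r of TIRAP went from 0.20 to 0.31 within groups and from 0.28 to 0.71 at 180 min.

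On the interleukin 1 side, IL1R2, the decoy receptor that takes up interleukin 1 without signalling, had a slope of 0.45 (SE 0.15, edgeR adjusted p = 0.138). At 180 min its normalised count was 280 in goat 13, 1655 in goat 17, 1742 in goat 14, 1819 in goat 11, 2887 in goat 10, 7176 in goat 15 and 8701 in goat 16, and in control goats it ran from 30.9 to 240. IL1R2 had the largest difference from the control group of the named and well-counted genes after PTX3, at 4.57 on the log2 scale. IL1RAP, the shared accessory chain, had the steepest slope of the list, at 0.61 (SE 0.30), and did not pass (adjusted p = 0.342). The cytokine IL10 had -0.06 (SE 0.30) at 31.0 ± 15.3 normalised counts at 180 min. At 30 min the list held TLR4, with a mean of 1185 ± 182 against 707 ± 185 in the control group, and TNF, the gene of tumour necrosis factor, at 40.1 ± 32.3 against 114 ± 52.6, and neither had a slope past the test.

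NF-kB, AP-1 and C/EBP factors are known to act on the PTX3 promoter. Of 18 NF-kB proteins and inhibitors only TNIP1, an inhibitor that works with A20, was listed at 180 min, with r 0.00, or 0.29 without goat 10. At 30 min NFKBIA, the inhibitor IkB-alpha that NF-kB itself induces, did not overlap the control group, with 1774 to 3406 normalised counts against 437 to 863. Its slope on PTX3 over both groups was 0.00 (SE 0.10), with r of -0.13 among control goats and -0.76 without goats 3 and 7, and goat 21 was the highest of the 30 min group in both genes. TNIP3, the other listed gene, an inhibitor related to TNIP1, had 5.26 ± 4.08 normalised counts at 30 min and 37.8 ± 35.6 in the control group. Its slope was -0.95 (SE 0.46, edgeR adjusted p = 0.891). Among the 7 control goats r was -0.89 and rho -0.93 (exact permutation p = 0.00198 and 0.00675, adjusted to 0.425 and 0.658), and r was -0.94 without goats 3 and 7.

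Of 22 AP-1, C/EBP and MAP kinase genes 8 were listed at 180 min, all with a higher mean (59.4% of all listed genes). The median normalised count was lower at 180 min for CEBPB (1983 against 2053 in control goats) and DUSP1 (1022 against 1202). In 4 of the 8 the slope was positive with an unadjusted edgeR p under 0.05 (11.4% of all). The median r was 0.45 against 0.08 over all genes, or 0.44 against 0.12 without goat 10. CEBPB, the C/EBP-beta factor of inflammatory and emergency myeloid transcription, had a slope of 0.52 (SE 0.14, edgeR adjusted p = 0.0925). Its normalised count at 180 min was 347 in goat 10, 1610 in goat 11, 1730 in goat 13, 1983 in goat 17, 4321 in goat 14, 10133 in goat 16 and 16345 in goat 15, and in control goats it ran from 1076 to 2430. Goats 14, 15 and 16 exceeded every control goat and goat 10 lay below them all. FOS, a component of AP-1, had 0.39 (SE 0.14, adjusted p = 0.188), the p38 kinase gene MAPK14 0.24 (SE 0.08, adjusted p = 0.151) and DUSP1, a phosphatase that switches MAP kinases off, 0.39 (SE 0.18, adjusted p = 0.311). Among the goats at 180 min r was 0.86 for CEBPB, 0.81 for FOS, 0.90 for MAPK14 and 0.80 for DUSP1, against 0.37, -0.14, 0.05 and -0.53 in the control group. The difference of the slopes between the groups had an unadjusted edgeR p of 0.0146, 0.0329, 0.0197 and 0.00557, and none passed adjustment (0.373 to 0.478). Without goats 15 and 16 the r at 180 min fell to 0.50, 0.46, 0.51 and 0.47. The related factors CEBPD and CEBPA had slopes of 0.03 (SE 0.10) and 0.03 (SE 0.08). For FOSL2, a further AP-1 component, r at 180 min was 0.25, or 0.67 without goat 10. With DESeq2, CEBPB and MAPK14 passed, 2 of the 8, beside the same 9.55%. At 30 min 6 were listed, CEBPB and FOS were higher without overlap, which held for 6.51% of all genes of that table, and no slope passed.

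**Figure D4:**
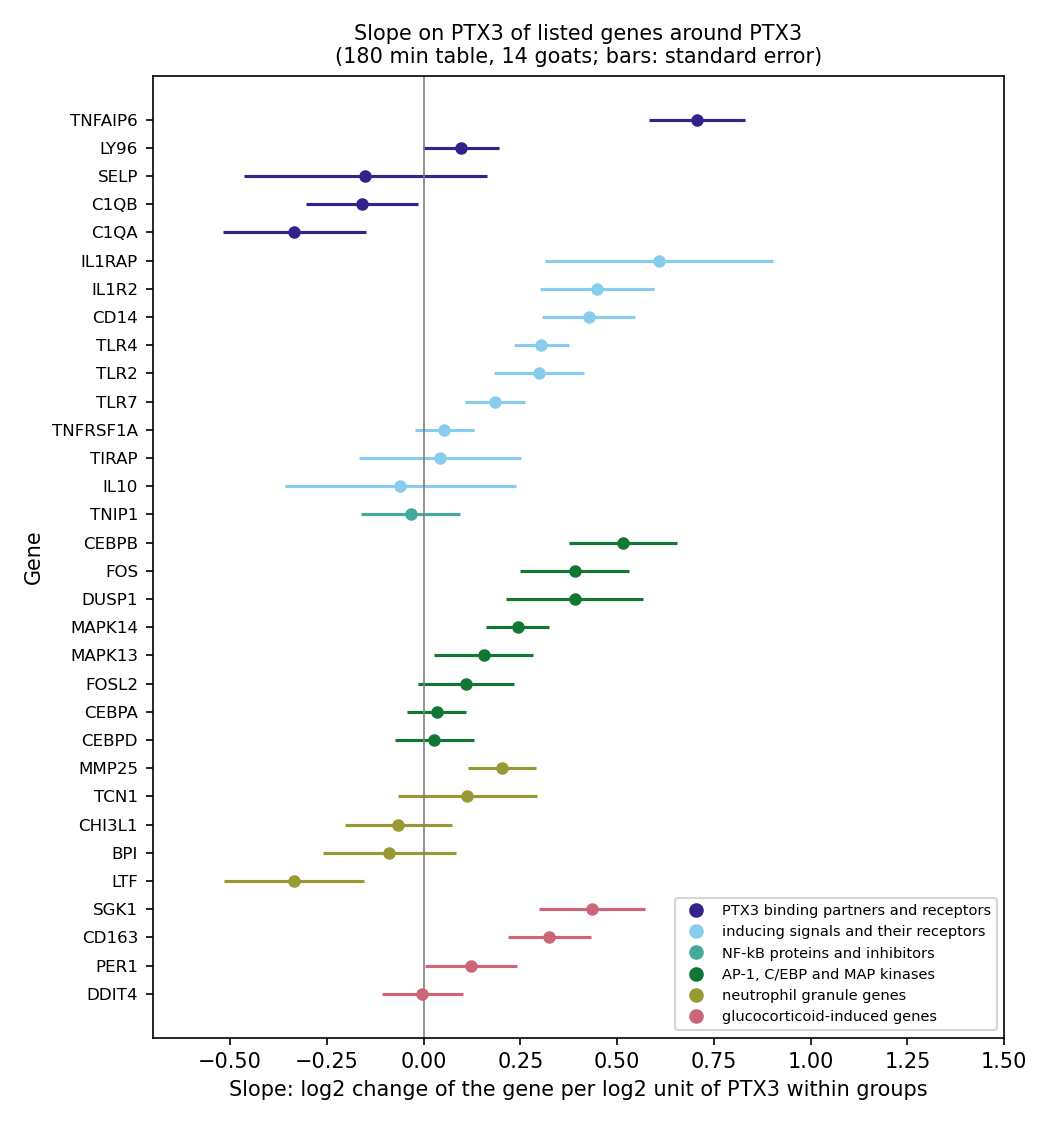
Slope on PTX3 (log2 change of a gene per log2 unit of PTX3 within groups) for the listed members of 6 gene lists in the 180 min table, fitted by edgeR over 14 goats, with bars of 1 standard error and colours by list. TNFAIP6 has the steepest slope, at 0.71, and LTF and C1QA the lowest, at -0.34 and -0.33.

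Of 22 neutrophil granule genes 5 were listed at 180 min, all with a higher mean against 59.4% of all listed genes, and their median r was -0.01 against 0.08 over all genes, or 0.22 against 0.12 without goat 10. LTF, the gene of lactoferrin, the main protein of the specific granules in which PTX3 protein is stored, had a slope of -0.34 (SE 0.18, edgeR adjusted p = 0.429). Its normalised count at 180 min was 686 in goat 11, 712 in goat 15, 828 in goat 14, 947 in goat 17, 965 in goat 13, 1147 in goat 16 and 5362 in goat 10. The goat highest in LTF was thus the second lowest in PTX3, and the other 6 goats were close together in LTF while PTX3 ran from 68.1 to 1927 FPKM. Without goat 10 the r of LTF at 180 min was -0.02 in place of -0.43. MMP25, a matrix metalloproteinase on the surface of neutrophils, was the 1 gene of these 5 with an unadjusted p under 0.05 (11.4% of all genes had a positive slope at that level), at a slope of 0.20 (SE 0.09, adjusted p = 0.291). BPI, TCN1 and CHI3L1 had slopes of -0.09 (SE 0.17), 0.11 (SE 0.18) and -0.07 (SE 0.14). Without goat 10 their r at 180 min went from -0.01 to 0.25 for BPI, from 0.23 to 0.55 for TCN1 and from -0.35 to 0.03 for CHI3L1. BPI was far lower in goat 11, at 137 normalised counts, than in the other 6 goats at 180 min, at 3436 to 21284. The r of BPI without goat 11 was not computed.

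Of 15 glucocorticoid-induced genes 7 were listed at 180 min, all with a higher mean (59.4% of all listed genes). The median of DUSP1 was lower at 180 min, at 1022 normalised counts against 1202 in control goats. In 4 of the 7 the slope was positive with an unadjusted edgeR p under 0.05 (11.4% of all). The median r was 0.50 against 0.08 over all genes, or 0.64 against 0.12 without goat 10. Besides IL1R2 and DUSP1 the genes with such a slope were SGK1, with 0.43 (SE 0.14, edgeR adjusted p = 0.125), and the haemoglobin scavenger receptor CD163, with 0.33 (SE 0.11, adjusted p = 0.138). With DESeq2, CD163, IL1R2 and SGK1 passed, 3 of the 7, beside 9.55% of all genes that rose with PTX3. For PER1, a gene of the circadian clock, r at 180 min was 0.25, or 0.80 without goat 10. DDIT4, an inhibitor of mTOR signalling, did not overlap the control group at either time. Its slope on PTX3 over both groups of the 180 min table was 0.00 (SE 0.11). The r of DDIT4 was -0.54 among control goats and 0.51 at 180 min, or 0.84 without goat 10. The slope difference had an unadjusted edgeR p of 0.0860 (adjusted 0.537). The control r turned to 0.32 without goats 3 and 7, so its negative sign rests on those goats. At 180 min r fell to 0.03 without the goats farthest from the median PTX3 level. At 30 min 6 of the 15 were listed, all with a higher mean against 29.5% of all genes of that table, and 4 were higher without overlap (NFKBIA, DDIT4, SGK1 and TSC22D3) against 6.51% of all. Only SGK1 had an unadjusted p under 0.05, with a slope of 0.26 (SE 0.10, edgeR adjusted p = 0.891), and 3.26% of all genes had a positive slope at that level.

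The genes with the largest differences between the groups did not all follow PTX3 among goats. Among named genes with a mean of at least 50 normalised counts, the 5 with the largest upward differences at 30 min after PTX3 were CXCL8 (3.79), SOCS1 (2.56), an inhibitor of cytokine signalling, DDIT4 (1.76), NFKBIA (1.68) and FasL (1.60), the ligand of the death receptor Fas, on the log2 scale. Their slopes on PTX3 ran from -0.26 to 0.17, with edgeR adjusted p from 0.891 to 0.992. At 180 min they were IL1R2 (4.57), the phosphatase ALPL (4.02), the anion transporter SLC26A8 (3.46), CLEC4E (3.29), which encodes the pattern receptor Mincle, and IL18RAP (3.20), the accessory chain of the interleukin 18 receptor. All 5 had positive slopes, from 0.25 to 0.54, with adjusted p from 0.0730 to 0.723.

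IL18RAP followed PTX3 closely at 180 min. Its normalised count was 405 in goat 13, 744 in goat 10, 1243 in goat 14, 1825 in goat 11, 1996 in goat 17, 6051 in goat 16 and 7395 in goat 15, which is the order of PTX3 in the same goats. Pearson's r was 0.99 and Spearman's rho 1.00 over the 7 goats, with exact permutation p of 0.000198 for r and 0.000397 for rho, the smallest that 7 goats allow for each, and r stayed at 0.98 without goats 15 and 16. Adjusted over all genes p was 0.245 for r and 0.490 for rho. In the control group r was 0.20, with 95.8 to 412 normalised counts. The slopes of the 2 groups differed at an unadjusted edgeR p of 0.00325, which did not pass adjustment, and no gene of the table did. The slope over both groups was 0.54 (SE 0.14, edgeR adjusted p = 0.0730).

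Taken within a single group, no listed gene passed adjustment in the exact permutation test. With 7 goats a lone gene could not pass: the smallest adjusted p it can reach for r is 0.245 over 1234 genes and 0.0849 over 428, and for rho 0.490 and 0.170. Among the 7 goats at 180 min, 135 of 1234 genes with varying levels (10.9%) had an unadjusted p under 0.05 for Pearson's r, 114 with a positive and 21 with a negative r, and 93 had one for Spearman's rho. Among the 7 control goats, 97 of 1234 genes of the 180 min table (7.86%) and 21 of 428 genes of the 30 min table (4.91%) did so for Pearson's r, and 54 and 23 for Spearman's rho. The smallest adjusted p of r was 0.245, 0.490 and 0.425 in these 3 families. Whether the slope on PTX3 differed between the groups was tested by edgeR: no gene passed adjustment, and 121 of 1246 genes at 180 min (9.71%) and 8 of 429 at 30 min (1.86%) had an unadjusted p under 0.05.

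The marker sums were set against PTX3 in the same way, in 17 correlations. The sum of the 3 monocyte markers had r 0.91 and rho 0.79 with PTX3 among the 7 goats at 180 min (exact permutation p = 0.00972 and 0.0480, adjusted over the 17 to 0.140 and 0.816). Without goats 15 and 16 that r was 0.57. Among control goats the same sum had r 0.61 and rho 0.43 (exact permutation p = 0.156 and 0.354, adjusted to 0.470 and 0.840), and r turned to -0.54 without goats 3 and 7. The sum of the 8 neutrophil markers had r 0.38 and rho 0.43 among the goats at 180 min (exact permutation p = 0.381 and 0.354, with goat 10 the highest in the sum). In the control group it had r 0.58 and rho 0.57 (exact permutation p = 0.161 and 0.200). Those r were 0.005 and 0.21 without the 2 farthest goats of each group. MS4A1 had r -0.90 and rho -0.57 among control goats (exact permutation p = 0.0165 and 0.200, adjusted to 0.140 and 0.840) and r -0.76 and rho -0.54 at 180 min (exact permutation p = 0.0438 and 0.236, adjusted to 0.248 and 0.840). Without the 2 farthest goats those r were -0.34 and 0.16, so the relation at 180 min rests on goats 15 and 16. None of the 17 passed adjustment, and the part of the monocyte share in the PTX3 level among goats was not tested.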

How the data were processed

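Whole-blood libraries of 18 goats were prepared with a poly-T, unstranded kit. Per the paper's methods the authors trimmed reads with fastp, aligned them with HISAT2 and assembled with StringTie. The deposited tables hold raw counts, normalised counts (signal: counts divided by size factors set within each table) and FPKM. Every listed gene has a deposited unadjusted p-value below 0.05 (430 genes, 119 unnamed; 1247 genes, 308 unnamed; 120 in both). The authors' log2 fold changes and adjusted p-values were deposited too and were not used, and their p-values served only to see how genes were listed. The tool that counted reads, the build and the annotation are not given in the sources used here.

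PTX3 and the gene lists were chosen with earlier results of these data known. PTX3 levels were compared on deposited FPKM and on log2(value + 1). Slopes were tested with edgeR 4.0.16 on the counts, with the deposited size factors, a group term and no filter. Since only listed genes entered, dispersions rest on genes already called. DESeq2 1.42.0 and limma 3.58.1 were alternatives. Within-group correlations used exact permutation of 7 goats (SciPy 1.17.1). Named genes were PTX3, list members, listed neighbours, and among named genes with a mean normalised count of at least 50 the 8 highest and 4 lowest r and the 5 largest log2 differences per table. No 2 libraries of a group agreed within sampling noise. On simulated counts edgeR recovered 54 of 100 slopes of 0.5 and 80 of 100 slopes of 1 over the 1246 genes at 180 min, with 9 of 1046 unchanged genes called. At 30 min it recovered 42 and 69 of 100 over 429 genes, with 5 of 229 unchanged genes called. The result of 1 listed marker gene at 30 min is not reported here.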

Additional observations from a re-analysis of the deposited data

Results flagged for a closer look

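Of 61 sets of values in groups of 4 or 7 goats, 6 had a highest or lowest goat far from the others by Dixon's ratio, where chance gives about 1 in 20. In PTX3 itself this was goat 21 at 30 min, at 154 FPKM, or 7.27 on the log2(FPKM + 1) scale, against 85.5 to 90.4 FPKM in the other 3. The other 4 were genes named for their r with PTX3, all on the log2(normalised count + 1) scale. HSF4 had a lowest goat of 3.92 and PLIN2 one of 7.86 at 30 min. IGFBP4 had a lowest goat of 3.29 at 180 min, which was goat 15, the highest in PTX3. SLC40A1 had a highest control goat of 12.6 in the 30 min table.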

How the results depend on the processing

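No paired analysis was possible because the goats of different groups are different animals with different numbers. The PTX3 differences kept their sign under every alternative run, and their size moved: over leaving out each goat they ran from 3.54 to 4.23 for 30 min against control, from 5.07 to 5.91 for 180 min against control and from 1.26 to 2.06 for 180 min against 30 min, and over the other settings from 3.69 to 4.51, 5.32 to 5.69 and 1.63 to 1.71. Centring each goat on the median listed gene, which was 0.69 lower at 30 min and 0.19 higher at 180 min than in controls, gave 4.51 and 5.32. The count of genes that followed PTX3 at 180 min, 1 with edgeR, was 0 with limma, 90 with DESeq2, 0 with TMM scaling, 10 among genes with a mean of at least 10, 7 with a pseudocount of 10, 0 on ranks of PTX3 and, added after the data were seen, 0 with the library sizes behind FPKM. Over leaving out each goat it ran from 0 to 23, with 23 without 180 min goat 14, 16 without control goat 9, 15 without control goat 4 and 3 without 180 min goat 17. The cause was not tested. At 30 min it was 0 under all 18 alternatives. The counts of within-group correlations at an unadjusted p under 0.05 ran, over leaving out each goat, from 8 to 36 (control, 30 min table; 8 without goat 3, 33 without goat 8, 36 without goat 7), from 19 to 126 (control, 180 min table; 19 without goat 3, 64 without goat 7) and from 42 to 141 (180 min; 42 without goat 15, 63 without goat 16). Spearman's rho gave 54 for control goats of the 180 min table. The slopes of the 8 highest and 4 lowest genes in r per table kept their sign under every alternative. These genes were chosen as the extremes of r in the same goats, so a kept sign follows largely from that choice. Leaving out goats 3 and 7 together was not run on the slopes. Other slopes, many of them near 0, were not rerun. Over leaving out each goat, added after the data were seen, the ratio of mean PTX3 FPKM ran from 7.45 to 14.3 (30 min to control), from 36.5 to 88.2 (180 min to control) and from 4.14 to 7.32 (180 min to 30 min). The groups held 7, 4 and 7 goats, and PTX3 had 67 reads in its lowest library.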
